A study of Mus musculus with 9 samples.

Results

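Genes for the synthesis and breakdown of proline, serine and asparagine were followed in RNA from mouse ear dermis. They were Pycr1, Aldh18a1, Oat and Prodh of the proline branch, Phgdh, Psat1, Psph and Shmt2 of the serine branch, and Asns. Pycr1 is the member around which the group was built, since the study lists it among the genes changed in both dermal comparisons, and its values are therefore given as a description. The other 8 were taken for their place in the same pathways, not by a limit on their values. That choice was made with earlier results of these data known. The members make up 9 of 52550 genes in the count table. Of these, 9 of 9 were among the 22430 genes with enough counts to be tested.

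The 3 groups had 3 libraries each, from wild-type mice labelled as C57BL/6 (C57BL/6J in the study's methods) and as 8 weeks old. VAS+H2O mice received vaseline for 5 days and water by gavage for 10 days. IMQ+H2O mice received imiquimod cream, a TLR7 agonist that causes psoriasis-like inflammation, for 5 days with the same water gavage. IMQ+XYF mice received imiquimod for 5 days and, per the labels, a daily gavage of 200 µl of XYF (Xiao-Yin-Fang, a herbal decoction) at 23.3 mg/g for 10 days. The labels and the study's description of the ear experiment differ on how many times a day the gavage was given. The study's methods name male mice and RNA of ear sheets from a pair of mice without saying whether each library pools them, so the p-values measure the spread between libraries. Libraries held 28756305 to 79836881 counts, and 8.21 to 14.3% of counts came from mitochondrial genes.

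The sheets were not dermal fibroblasts alone. The 9 fibroblast markers were joined by markers of cartilage, skeletal muscle and epidermal keratinocytes, and the summed keratinocyte level was 17300 CPM (counts scaled to equal library size) in IMQ+XYF replicate 1 against 4630 and 6150 in replicates 2 and 3 of that group. That library also had the lowest summed skeletal muscle level, at 154 CPM, and some, but not all, of the differences that it moves are also given without it. All CPM values were scaled by TMM, a method that corrects for differences in library composition.

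Proline is made from glutamate, or from ornithine, through the intermediate pyrroline-5-carboxylate, and it is a main building block of collagen. Serine is made from a glycolytic intermediate in a chain of reactions and gives glycine and the carbon units used for nucleotides. Many of these genes, and the gene for asparagine synthetase, are known targets of ATF4, a transcription factor of the amino acid and stress response that binds a CARE element, a composite site of C/EBP and ATF factors.

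The core of that element, TGATGNAA on either strand, was looked for in the RefSeq promoters of the GRCm38.p6 build, from 250 bases before to 50 bases after each start. Promoters were found for 9 of 9 members, and 2 members, Pycr1 and Asns, held a match. Among all promoters of the same length, 1304 of 32851 (3.97%) held one. Counted by gene, 1219 of 27025 (4.51%) held one in any promoter. The carrier gene Slc7a11, described with the amino acid carriers, also held it in 2 places, on opposite strands. The carrier gene Slc1a4 held 1 match, which spans its start and is not shown. The windows are shown because Pycr1, Asns and Slc7a11 hold the core before the start. The capitals mark the core, the sequences run 5′ to 3′ on the gene's own strand, which is the minus strand for each gene, and the positions are chr11:120643833-120643862 for Pycr1, chr6:7693214-7693243 for Asns and chr3:50443661-50443690 for Slc7a11.
Pycr1: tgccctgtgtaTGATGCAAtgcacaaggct
Asns: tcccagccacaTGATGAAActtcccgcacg
Slc7a11: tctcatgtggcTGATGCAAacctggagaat
The core lay 95 bases before the annotated start of Pycr1, 15 bases before that of Asns and, for the site shown, 58 bases before that of Slc7a11. The Asns window falls inside the gene's span in GENCODE, whose start lies further upstream. A match describes the letters of the window and does not show binding.

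Pycr1, the mitochondrial reductase that turns pyrroline-5-carboxylate into proline, lies on chromosome 11 at 120635712 to 120643769 (GRCm38, minus strand). Its level in the VAS+H2O libraries was 4.54, 4.11 and 7.09 CPM. In the IMQ+H2O libraries it was 1.58, 1.02 and 1.46 CPM, resting on 46, 42 and 75 counts. In the IMQ+XYF libraries it was 2.41, 4.05 and 4.38 CPM. Every IMQ+H2O library was thus below every library of the other 2 groups, while IMQ+XYF replicates 1 and 2 were below all 3 VAS+H2O libraries and replicate 3 lay among them. The fitted log2 difference was −1.96 (SE 0.33) for IMQ+H2O against VAS+H2O and 1.42 (SE 0.32) for IMQ+XYF against IMQ+H2O. Between IMQ+XYF and VAS+H2O it was −0.54 (SE 0.31). These 3 differences share libraries and Pycr1 was chosen on the first and second of them, so no p-value is attached. Without IMQ+XYF replicate 1 the difference between IMQ+XYF and IMQ+H2O was 1.64.

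In bulk RNA of this kind, fewer cells of a type and less RNA per cell cannot be told apart. Cartilage markers moved with Pycr1. Of 15 listed, 14 were tested and Matn1 had no counts. Of those tested, 14 of 14 were lower in IMQ+H2O than in VAS+H2O and higher in IMQ+XYF than in IMQ+H2O. Of all tested genes, 50.7% were higher in the second of these comparisons. By imiquimod 3 of the 14 were called, where 0.348% of all genes were called lower, and by XYF 0 were. The median log2 differences of the cartilage markers were −1.88 and 1.47, and their summed level ran from 2240 to 4700 CPM in VAS+H2O, 667 to 1140 CPM in IMQ+H2O and 1320 to 3640 CPM in IMQ+XYF. Markers of other cells moved in the same comparisons. Of the hair matrix markers, 14 of 14 tested were lower by imiquimod, 9 of them called, beside the same 0.348% of all genes. Their summed level ran from 134 to 499 CPM in VAS+H2O, 7.88 to 41.2 CPM in IMQ+H2O and 9.56 to 21.6 CPM in IMQ+XYF. Of the epidermal keratinocyte markers, 10 of 12 were lower by imiquimod and 11 of 12 higher by XYF, and their summed level ran from 5120 to 8290 CPM, 2890 to 4280 CPM and 4630 to 17300 CPM in the same order of groups. Skeletal muscle markers were lower by XYF in 12 of 12. Their summed level ran from 716 to 3420 CPM in VAS+H2O, 1600 to 3400 CPM in IMQ+H2O and 154 to 1140 CPM in IMQ+XYF. Macrophage markers were lower by XYF in 8 of 8, with a median of −0.58. Neutrophil markers were higher by imiquimod in 8 of 9 tested (47.7% of all genes were higher), with a median of 4.72. The part of any of these cells in the Pycr1 values was not tested.

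Of 13674 genes with enough counts, the 5 whose levels were most like Pycr1 over the 9 libraries were Acsl3, Mfsd11, Col9a3, Col11a2 and Col2a1. Their Pearson correlations with Pycr1 were 0.983, 0.97, 0.955, 0.955 and 0.947, given as a description over libraries that share their group differences. After each group's mean was removed the correlations were 0.901, 0.847, 0.769, 0.81 and 0.734. Col2a1, Col9a3 and Col11a2 encode collagen chains of cartilage, and Acsl3 encodes an enzyme that activates long-chain fatty acids. Col2a1 was at 147, 83.2 and 131 CPM in VAS+H2O, 19.4, 13.9 and 22.3 CPM in IMQ+H2O and 29.3, 84.0 and 53.4 CPM in IMQ+XYF. Within IMQ+XYF, replicate 1 was the lowest library for both Col2a1 and Pycr1. The correlations of Pycr1 with the other 8 members ran from −0.47 to 0.34, and since the 5 genes above were picked for their correlation the values are not compared.

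**Figure D1:**
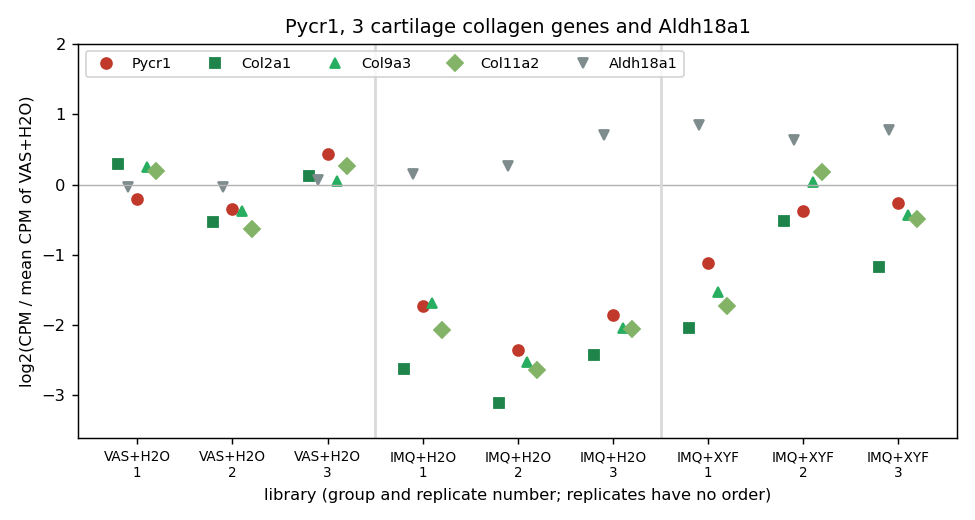
Level of Pycr1, 3 cartilage collagen genes and Aldh18a1 in each of the 9 libraries, as log2 of the CPM over the mean CPM of VAS+H2O (y axis, 0 marks that mean). Pycr1 sat between −1.73 and −2.36 in IMQ+H2O with the collagen genes below 0 beside it, while every Aldh18a1 point of IMQ+H2O and IMQ+XYF was above 0.

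Per kilobase of exon, a scaling used to compare levels of different genes, Pycr1 was less abundant than Pycr3, which encodes a cytosolic reductase of the same intermediate. The length was that of all annotated exons joined, 3935 bases for Pycr1 and 1339 bases for Pycr3. It need not be the length of the transcripts present, and the gap was smaller in CPM, with VAS+H2O means of 5.25 and 9.40. The level of Pycr1 was 1.15, 1.04 and 1.80 CPM per kb in VAS+H2O, 0.402, 0.259 and 0.371 CPM per kb in IMQ+H2O and 0.612, 1.03 and 1.11 CPM per kb in IMQ+XYF. The level of Pycr3 was 7.21, 6.37 and 7.47 CPM per kb in VAS+H2O, 9.86, 9.78 and 11.1 CPM per kb in IMQ+H2O and 10.8, 10.0 and 10.3 CPM per kb in IMQ+XYF. Every library thus had more Pycr3 than Pycr1 RNA by length, and in the IMQ+H2O libraries Pycr1 was lower and Pycr3 higher than in VAS+H2O.

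In CPM not divided by length, Pycr3 was at 9.65, 8.53 and 10.0 CPM in VAS+H2O, 13.2, 13.1 and 14.8 CPM in IMQ+H2O and 14.5, 13.4 and 13.8 CPM in IMQ+XYF, so that both imiquimod groups lay above VAS+H2O without overlap. Its log2 difference did not pass the test in either comparison with VAS+H2O, at 0.54 for IMQ+H2O (SE 0.12, edgeR, Benjamini-Hochberg adjusted p = 0.0668) and 0.57 for IMQ+XYF (edgeR, adjusted p = 0.0534).

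**Figure D2:**
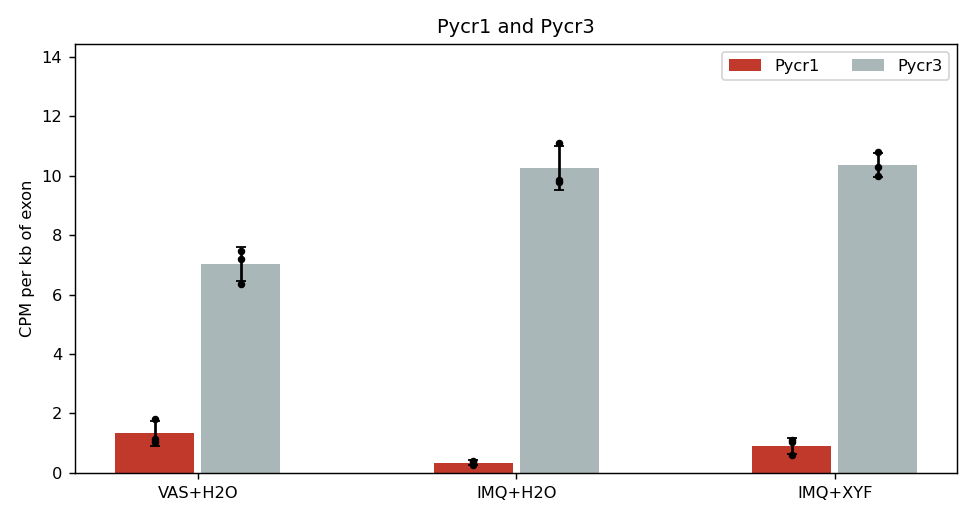
Mean level of Pycr1 and Pycr3 in each group, in CPM per kb of exon (bars, with the SD over 3 libraries and each library as a point). Pycr1 had the smaller bar in each group, and the Pycr3 bar was 7.02 in VAS+H2O, 10.2 in IMQ+H2O and 10.4 in IMQ+XYF.

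Aldh18a1, the enzyme that makes pyrroline-5-carboxylate from glutamate, the step before Pycr1, lies on chromosome 19 at 40550257 to 40588463. It was at 23.7, 23.9 and 25.7 CPM in VAS+H2O, 27.2, 29.3 and 39.7 CPM in IMQ+H2O and 44.1, 37.9 and 41.7 CPM in IMQ+XYF. Both imiquimod groups were above VAS+H2O in every library, and the ranges of IMQ+H2O and IMQ+XYF overlapped. Levels of Aldh18a1 and Pycr1, consecutive steps, thus lay on opposite sides of VAS+H2O in the IMQ+H2O libraries. A gene was called changed at an adjusted p of 0.05 or lower together with a log2 difference of at least 1 in size. By edgeR, the log2 difference of Aldh18a1 was 0.39 by imiquimod (SE 0.15, adjusted p = 0.177), 0.36 by XYF (SE 0.15, adjusted p = 0.4) and 0.76 for IMQ+XYF against VAS+H2O (SE 0.15, adjusted p = 0.0441). The last passed the adjusted p but was below the size limit. Over 14 alternative settings its adjusted p ran from 0.000166 to 0.135 and passed in 4, of which the only ones with a library left out were those without IMQ+H2O replicate 3 or IMQ+XYF replicate 2. Without IMQ+XYF replicate 1 the difference was 0.71 (edgeR, adjusted p = 0.12).

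Oat, which makes the same intermediate from ornithine, and Prodh, which starts the breakdown of proline, had groups that overlapped. Oat, on chromosome 7 at 132557478 to 132576398, was the most abundant member. It ran from 119 to 129 CPM in VAS+H2O, 111 to 129 CPM in IMQ+H2O and 122 to 146 CPM in IMQ+XYF, and the 3 ranges overlapped. Its log2 differences were −0.02 by imiquimod (95% interval −0.25 to 0.21), 0.16 by XYF (−0.08 to 0.39) and 0.14 for IMQ+XYF against VAS+H2O (−0.09 to 0.37). Prodh, on chromosome 16 at 18060357 to 18090203, was at 14.9, 10.6 and 13.7 CPM in VAS+H2O, 16.0, 16.1 and 12.9 CPM in IMQ+H2O and 16.9, 8.24 and 12.9 CPM in IMQ+XYF. The 3 groups of Prodh overlapped, and its differences were 0.19, −0.24 and −0.05 (edgeR, adjusted p = 0.701, 0.727 and 0.953).

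None of the 3 enzymes of serine synthesis passed the test in any comparison, and the signs of their fitted differences were mixed. Phgdh, which catalyses the first step, lies on chromosome 3 at 98313170 to 98339990 and has a processed pseudogene, Phgdh-ps1, with which reads could be shared. It was at 37.0, 40.4 and 47.9 CPM in VAS+H2O, 45.1, 43.3 and 40.5 CPM in IMQ+H2O and 65.1, 46.1 and 48.6 CPM in IMQ+XYF. IMQ+XYF lay above IMQ+H2O in every library, with replicate 1 well above the others. The log2 difference by XYF was 0.31 (SE 0.15, edgeR, adjusted p = 0.455), and 0.14 without that library.

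Psat1, the transaminase of the middle step, on chromosome 19 at 15904678 to 15947337, ran from 61.5 to 102 CPM in VAS+H2O, 63.1 to 79.4 CPM in IMQ+H2O and 70.6 to 79.3 CPM in IMQ+XYF. All its groups overlapped, and its differences were −0.13, 0.07 and −0.06 in the 3 comparisons (edgeR, adjusted p = 0.706, 0.888 and 0.91). Psph, the phosphatase of the last step, on chromosome 5 at 129765558 to 129787449, was at 37.7, 38.4 and 47.8 CPM in VAS+H2O, 37.8, 39.4 and 30.9 CPM in IMQ+H2O and 25.6, 31.3 and 35.2 CPM in IMQ+XYF. Every IMQ+XYF library was below every VAS+H2O library, but the difference of −0.43 (SE 0.16) did not pass the test (edgeR, adjusted p = 0.191). Of its exon bases, 10.4% are shared with Cct6a on the opposite strand, and whether the counting used strand is not given in the sources used here.

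Shmt2, the mitochondrial enzyme that splits serine into glycine and a carbon unit, lies on chromosome 10 at 127517123 to 127522444. It was at 42.7, 39.0 and 41.6 CPM in VAS+H2O, 52.3, 56.4 and 56.9 CPM in IMQ+H2O and 70.8, 53.7 and 64.3 CPM in IMQ+XYF. Every library of either imiquimod group was above every VAS+H2O library. Its log2 difference was 0.43 by imiquimod (SE 0.11, edgeR, adjusted p = 0.0927), 0.19 by XYF (SE 0.11, edgeR, adjusted p = 0.517) and 0.62 for IMQ+XYF against VAS+H2O (SE 0.11, edgeR, adjusted p = 0.0398). The last passed the adjusted p below the size limit. Over 14 alternative settings its adjusted p ran from 0.000104 to 0.128 and passed in 3, and with a library left out it passed only without IMQ+XYF replicate 2. Without IMQ+XYF replicate 1 the difference was 0.52 (edgeR, adjusted p = 0.0952).

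Asns makes asparagine from aspartate and glutamine and lies on chromosome 6 at 7675169 to 7693254. It was at 15.0, 19.4 and 16.0 CPM in VAS+H2O, 26.3, 24.4 and 31.6 CPM in IMQ+H2O and 44.9, 23.3 and 37.4 CPM in IMQ+XYF. Both imiquimod groups were above VAS+H2O in every library, and IMQ+XYF replicate 2 was below all 3 IMQ+H2O libraries. Its log2 difference was 0.71 by imiquimod (SE 0.23, edgeR, adjusted p = 0.14), 0.36 by XYF (SE 0.23, edgeR, adjusted p = 0.544) and 1.07 for IMQ+XYF against VAS+H2O (SE 0.23, edgeR, adjusted p = 0.0547). The last had the size of a call and missed the adjusted p. Without IMQ+XYF replicate 1 it was 0.85 (edgeR, adjusted p = 0.143), and without replicate 2 it was 1.31 (edgeR, adjusted p = 0.0083). The difference by XYF was 0.15 without replicate 1. Its adjusted p ran from 0.000982 to 0.168 over the alternatives.

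**Figure D3:**
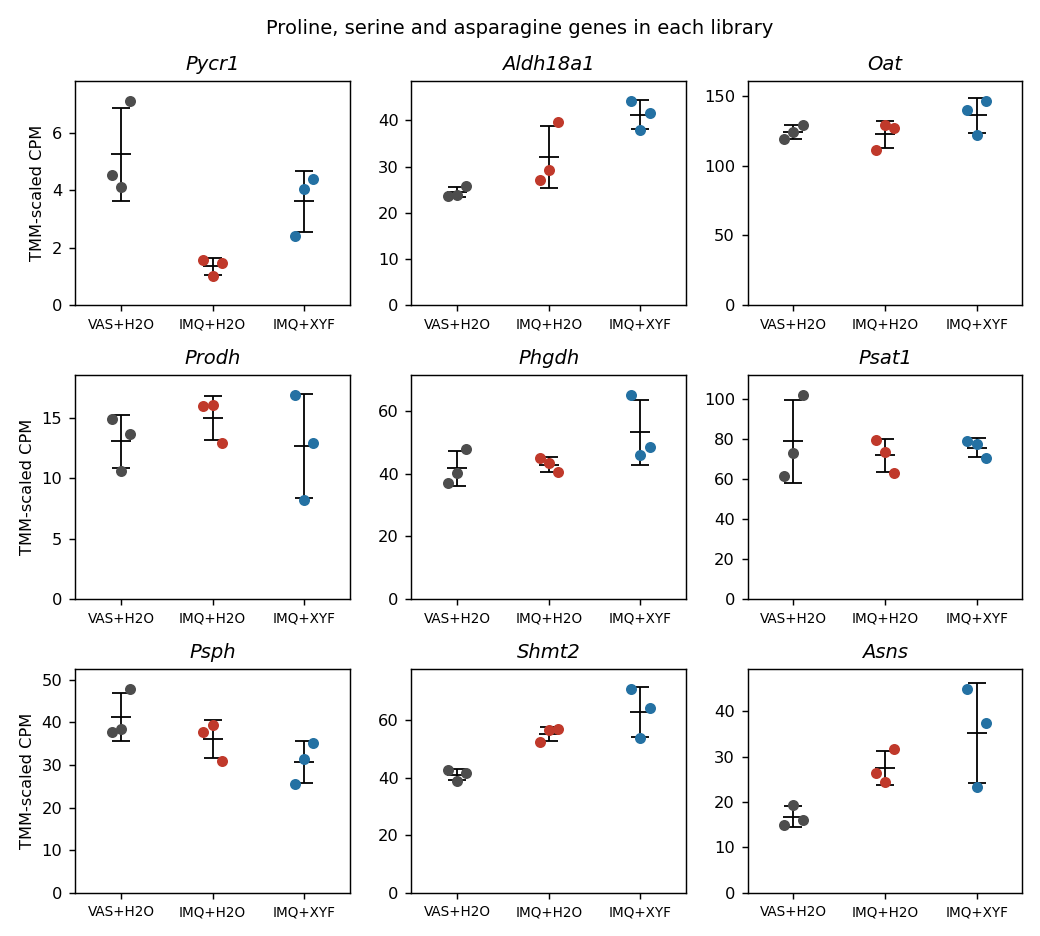
Level of each member in TMM-scaled CPM (y axis, from 0) in the 9 libraries (points), with the mean and SD of each group (n = 3). Pycr1 had its lowest values in IMQ+H2O, at 1.02 to 1.58 CPM, while Aldh18a1, Shmt2 and Asns were higher in both imiquimod groups than in VAS+H2O.

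Counted over the members, 1 of 9, Pycr1, was called for imiquimod against vaseline, where 0.994% of all tested genes were called, and since it was chosen on that comparison nothing is read from the count. For XYF, 0 of 9 were called by edgeR, against 0.00892% of all genes (2 genes), with 2 members (11.7% of all genes) at an unadjusted p under 0.05 and 1 member, Pycr1, called by DESeq2, which called 0.936% of all genes. Pycr1 was chosen on this comparison too, so nothing is read from these counts. For IMQ+XYF against VAS+H2O, 0 of 9 were called by edgeR, against 1.20% of all genes, with 5 members (18.3% of all genes) at an unadjusted p under 0.05 and 1 member, Asns, called by DESeq2, which called 3.17% of all genes. At an adjusted p of 0.05 or lower regardless of size, 2 of 9 passed in that last comparison, where 2.02% of all genes did.

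Pycr1 did not overlap between groups by imiquimod or by XYF, which its choice could fix. Of the other 8 members, 3 did not overlap by imiquimod (Aldh18a1, Shmt2 and Asns, all higher), where 31.5% of all genes did not. By XYF it was 1 of the other 8, Phgdh, higher, against 18.0% of all genes. Between IMQ+XYF and VAS+H2O it was 4 of 9, Psph lower and Aldh18a1, Shmt2 and Asns higher, against 22.1% of all genes. The median log2 difference of the members, Pycr1 included, was 0.04, 0.19 and 0.14 in these 3 comparisons. Over all genes it was −0.023, 0.005 and −0.024. Pycr1 was chosen on the comparisons by imiquimod and by XYF, so there the member medians are a description and are not compared.

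Aldh18a1, Shmt2 and Asns followed each other across libraries. Over the 9 libraries the correlation was 0.93 for Asns with Shmt2, 0.90 for Aldh18a1 with Shmt2 and 0.88 for Aldh18a1 with Asns. These pairs are named because they had the highest correlations among the members. With group means removed they were at 0.72, 0.52 and 0.57, while the other member pairs ran from −0.46 to 0.85 (Prodh with Shmt2). Psph ran the other way, with −0.79 against Aldh18a1, or −0.46 with group means removed. Proliferation markers moved with Aldh18a1, Shmt2 and Asns, with 14 of 14 higher in IMQ+XYF than in VAS+H2O (47.3% of all genes were higher). Of these markers 3 were called, where 0.695% of all genes were called higher, and the median log2 difference was 1.06. Their summed levels were 165 to 250 CPM in VAS+H2O, 235 to 326 CPM in IMQ+H2O and 320 to 460 CPM in IMQ+XYF. Their part in these members' values was not tested.

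**Figure D4:**
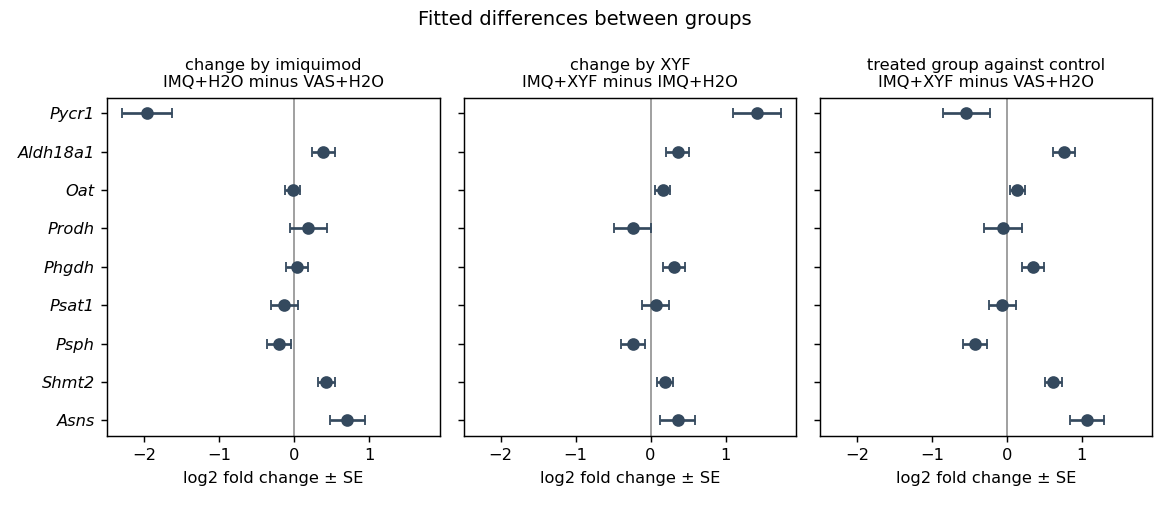
Fitted log2 differences with their SE for the 9 members (rows) in the 3 comparisons (panels, with the direction in each title). Pycr1 stood at −1.96 by imiquimod and 1.42 by XYF, and Asns had the largest positive value, 1.07, between IMQ+XYF and VAS+H2O.

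The neighbouring pathways were read from 7 lists, with 97 genes tested, chosen with earlier results of these data known. In the serine, glycine and folate-carbon list of 20 genes, 1 was called higher by imiquimod (0.646% of all genes) and none was called lower (0.348%). Without overlap, 6 were higher and 3 lower by imiquimod, where 31.5% of all genes did not overlap. The called gene was Mthfd2, the mitochondrial folate enzyme that acts just after Shmt2. It was at 5.65, 7.48 and 7.44 CPM in VAS+H2O, 12.1, 14.3 and 17.4 CPM in IMQ+H2O and 17.4, 11.6 and 17.1 CPM in IMQ+XYF. Neither imiquimod group overlapped VAS+H2O. The log2 difference was 1.09 by imiquimod (SE 0.21, edgeR, adjusted p = 0.0499), 0.08 by XYF (edgeR, adjusted p = 0.903) and 1.17 for IMQ+XYF against VAS+H2O (edgeR, adjusted p = 0.04). The call by imiquimod held under 5 of 14 alternative settings, and was lost without any 1 of the 6 libraries compared or without IMQ+XYF replicate 3. The call against VAS+H2O held under 4 of 14, and with a library left out it held only without IMQ+XYF replicate 2.

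Mthfd1l, the next mitochondrial folate enzyme, differed by 0.95 between IMQ+XYF and VAS+H2O (edgeR, adjusted p = 0.0307), just under the size limit. Its adjusted p passed in 4 of 14 alternative settings, with a range from 2.33e-06 to 0.106, and with a library left out it passed only without IMQ+XYF replicate 2. The difference was 0.88 without IMQ+XYF replicate 1 (edgeR, adjusted p = 0.0877). Tyms, which makes thymidylate, was at 9.05, 7.28 and 12.2 CPM in VAS+H2O and 15.2, 16.1 and 17.0 CPM in IMQ+H2O, with a difference of 0.76 (edgeR, adjusted p = 0.0889). Shmt1, the cytosolic partner of Shmt2, differed by 0.29 by imiquimod and 0.50 by XYF (edgeR, adjusted p = 0.501 and 0.43). Gcat, an enzyme of threonine breakdown, was at 37.7, 11.7 and 16.5 CPM in IMQ+XYF against 10.2, 11.5 and 12.1 CPM in IMQ+H2O, so that replicate 1 stood far above the rest, and its difference by XYF was 0.96 (edgeR, adjusted p = 0.393), or 0.32 without that library (edgeR, adjusted p = 0.603).

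Of 6 further tested genes of the proline branch, 0 were called in any comparison by edgeR or DESeq2. By imiquimod 4 had an unadjusted p under 0.05, beside 20.9% of all genes, and by XYF 0 had, beside 11.7%. Between IMQ+XYF and VAS+H2O 4 had, beside 18.3% of all genes. The median log2 difference of the 6 genes by imiquimod was −0.20. The second proline dehydrogenase gene, Prodh2, had 5 counts in IMQ+H2O replicate 1, 3 in IMQ+XYF replicate 2 and none in the other libraries, and was not tested. Aldh4a1, which completes proline breakdown, differed by −0.47 by imiquimod, −0.18 by XYF and −0.65 for IMQ+XYF against VAS+H2O (edgeR, adjusted p = 0.208, 0.727 and 0.117), and 32.5% of its exon bases are shared with Gm21969 on the same strand. Pepd, which frees proline from dipeptides, was at 29.4, 36.3 and 28.7 CPM in VAS+H2O and 22.2, 22.5 and 24.5 CPM in IMQ+H2O, a difference of −0.45 (edgeR, adjusted p = 0.0996). Glud1 and Glul, enzymes of glutamate, differed by −0.20 and −0.21 by XYF (edgeR, adjusted p = 0.47 and 0.485).

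Among 7 tested genes of asparagine and aspartate 0 were called by edgeR or DESeq2. At an unadjusted p under 0.05 there was 1 by imiquimod and 0 by XYF, beside 20.9% and 11.7% of all genes. Between IMQ+XYF and VAS+H2O there was 1, beside 18.3% of all genes. The first was Ass1, which joins aspartate to citrulline, at 22.7, 21.1 and 22.2 CPM in VAS+H2O, 31.4, 47.0 and 36.8 CPM in IMQ+H2O and 47.0, 33.5 and 35.8 CPM in IMQ+XYF. Its difference by imiquimod was 0.81 (edgeR, adjusted p = 0.0637). Got2 and Asnsd1 differed by −0.16 and −0.37 by XYF (edgeR, adjusted p = 0.682 and 0.587).

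Among 12 tested amino acid carriers 1 was called lower by imiquimod, where 0.348% of all genes were. In IMQ+XYF against VAS+H2O 1 was called higher, where 0.695% of all genes were. The first was Slc1a4, a carrier of alanine, serine and cysteine. It was at 51.5, 36.0 and 33.0 CPM in VAS+H2O, 19.5, 14.6 and 17.5 CPM in IMQ+H2O and 23.1, 37.6 and 25.1 CPM in IMQ+XYF. IMQ+H2O lay below both other groups without overlap, the order of levels also seen for Pycr1. The log2 difference was −1.22 by imiquimod (SE 0.24, edgeR, adjusted p = 0.047) and 0.73 by XYF (edgeR, adjusted p = 0.364), or 0.87 without IMQ+XYF replicate 1, and the call by imiquimod held under 6 of 14 alternative settings. It was lost without the same libraries as that of Mthfd2 by imiquimod.

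The other was Slc7a11, the cystine-glutamate exchanger. It was at 2.35, 3.81 and 2.29 CPM in VAS+H2O, 9.71, 12.0 and 14.7 CPM in IMQ+H2O and 51.3, 12.0 and 25.8 CPM in IMQ+XYF. Both imiquimod groups lay above VAS+H2O, IMQ+XYF replicate 1 was the highest library and replicate 2 lay within the range of IMQ+H2O. The log2 difference was 2.12 by imiquimod (edgeR, adjusted p = 0.0703), 1.29 by XYF (edgeR, adjusted p = 0.379) and 3.41 for IMQ+XYF against VAS+H2O (edgeR, adjusted p = 0.0239). Without IMQ+XYF replicate 1 the last was 2.75 (edgeR, adjusted p = 0.0587) and the difference by XYF was 0.64. The call was also lost without any 1 of the 3 VAS+H2O libraries or without IMQ+XYF replicate 3, and held under 7 of 14 alternative settings. Slc3a2, the shared heavy chain of several carriers, was at 116, 149 and 151 CPM in VAS+H2O and 199, 225 and 215 CPM in IMQ+H2O, a difference of 0.62 (edgeR, adjusted p = 0.067). Slc38a2, a carrier of small neutral amino acids, proline among them, differed by −0.37 by imiquimod and 0.45 by XYF (edgeR, adjusted p = 0.158 and 0.364).

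**Figure D5:**
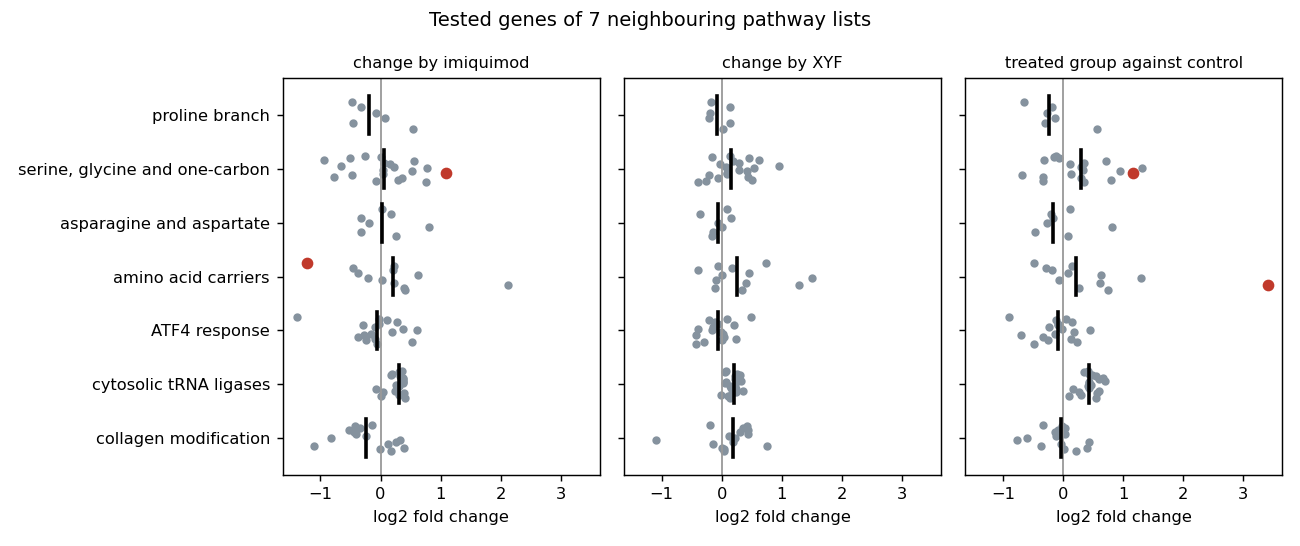
Log2 differences of the tested genes of 7 pathway lists in the 3 comparisons (points, red where called by edgeR, with the list's median as a black bar). Red points are Mthfd2 (1.09 and 1.17), Slc1a4 (−1.22) and Slc7a11 (3.41), and the transfer RNA ligases lie mostly to the right of 0.

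The ATF4 response list showed no call by edgeR among 17 tested genes in any comparison. At an unadjusted p under 0.05 were 3 by imiquimod and 1 by XYF, beside 20.9% and 11.7% of all genes. Between IMQ+XYF and VAS+H2O there were 4, beside 18.3% of all genes. DESeq2 called 1 by imiquimod, where it called 4.23% of all genes. Atf4 itself was at 239, 331 and 334 CPM in VAS+H2O, 280, 309 and 296 CPM in IMQ+H2O and 341, 288 and 305 CPM in IMQ+XYF, and its groups overlapped. Its difference by imiquimod was −0.03 (edgeR, adjusted p = 0.919), and ATF4 is known to be controlled largely through translation, which these data do not measure. Atf3, a stress-induced factor, was at 384, 701 and 780 CPM in VAS+H2O against 203, 299 and 208 CPM in IMQ+H2O, a difference of −1.39 (edgeR, adjusted p = 0.0654). Eif4ebp1, an inhibitor of translation, differed by 0.61 by imiquimod (edgeR, adjusted p = 0.0943). Nupr1 differed by −0.70 between IMQ+XYF and VAS+H2O (edgeR, adjusted p = 0.0394), below the size limit, and the adjusted p passed in 3 of 14 alternative settings and was 0.0837 by edgeR without IMQ+XYF replicate 1. Ddit4 differed by −0.39 by XYF (edgeR, adjusted p = 0.522).

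Cytosolic transfer RNA ligases, which load amino acids for translation, were read next. Of 20 tested, 19 had a positive difference by imiquimod, beside 47.7% of all genes, and 16 were higher without overlap, beside 15.1% of all genes. Their median was 0.31 and 0 were called by edgeR or DESeq2, with 12 at an unadjusted p under 0.05, beside 20.9% of all genes. Yars and Kars had the lowest p, with differences of 0.40 and 0.38 (edgeR, adjusted p = 0.129 and 0.134). Between IMQ+XYF and VAS+H2O 20 of 20 were positive, beside 47.3% of all genes, with a median of 0.44. In that comparison Farsb, at 0.67, had an adjusted p of 0.0407 by edgeR below the size limit, which passed in 3 of 14 alternative settings. Farsb was at 0.57 without IMQ+XYF replicate 1 (edgeR, adjusted p = 0.103). By XYF the median was 0.19, with 1 gene at an unadjusted p under 0.05, beside 11.7% of all genes. Rars differed by 0.35 by XYF (edgeR, adjusted p = 0.429). Rars was at 101, 63.8 and 84.4 CPM in IMQ+XYF, highest in replicate 1, and no difference without that library is given.

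The collagen modification list covers the enzymes that hydroxylate proline and lysine in collagen and their partners. Of 15 tested, 10 had a negative and 5 a positive difference by imiquimod, with a median of −0.24, where 47.7% of all genes were positive. By XYF 12 had a positive difference, with a median of 0.18, where 50.7% of all genes were positive. None was called by edgeR, with 7 and 5 at an unadjusted p under 0.05, beside 20.9% and 11.7% of all genes, while DESeq2 called 1 by imiquimod (4.23% of all genes). The cartilage markers moved in the same directions, with the medians of −1.88 and 1.47 given above, and their part in this list was not tested. P4ha2, a prolyl 4-hydroxylase subunit, was at 53.8, 49.2 and 50.1 CPM in VAS+H2O, 22.2, 31.1 and 33.2 CPM in IMQ+H2O and 26.6, 35.1 and 39.0 CPM in IMQ+XYF. Its difference by imiquimod was −0.82 (edgeR, adjusted p = 0.0655). P3h2, a prolyl 3-hydroxylase, differed by −0.52 by imiquimod and 0.43 by XYF (edgeR, adjusted p = 0.0757 and 0.364), and P3h4 by −0.40 and 0.43 (edgeR, adjusted p = 0.124 and 0.364). Its libraries of IMQ+H2O, at 21.9, 20.9 and 21.9 CPM, lay below those of both other groups.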

How the data were processed

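RNA was sequenced from 9 ear dermis libraries in 3 groups of 3. The authors deposited raw read counts per gene. Per the labels and the study's methods, reads were aligned with STAR 2.5 to GRCm38 with Ensembl annotation, and the counting tool and its use of strand are not given in the sources used here. Counts were tested in R 4.3.3 with edgeR 4.0.16 (filterByExpr, TMM, quasi-likelihood test, 1 fit of all 9 libraries, Benjamini-Hochberg adjustment over 22430 genes). The SE is the size of the log2 difference over the square root of F. A call needed an adjusted p of 0.05 or lower and a log2 difference of at least 1 in size. DESeq2 1.42.0, its size factors in edgeR, no filter, fits of the compared groups alone, a replicate block and leaving out each library were alternatives. Positions and exon lengths are from GENCODE vM21, and promoters from RefSeq GRCm38.p6. The common biological coefficient of variation was 0.296, and arms of 3 limit the precision. Of the 212 symbols listed, 1 was not matched (Krt85).

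The members and lists were chosen with earlier results of these data known. Named are all members, 5 pathway genes (Pycr3, Aldh4a1, Shmt1, Mthfd2, Atf4), each called list gene, the 2 genes of lowest p per list by imiquimod and by XYF, and the 5 genes most correlated with Pycr1 (mean of at least 100 scaled counts). An item of the planned lists is not reported here.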

Additional observations from a re-analysis of the deposited data

How the results depend on the processing

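Over all comparisons and alternatives, 356 of 378 values of members stayed on the same side of the call limits with the same sign. That count mostly covers values not called in the main fit. The only call of a member there, Pycr1 by imiquimod, held under 7 of 14 alternatives. By imiquimod, 223 genes were called, against 948 with DESeq2, 445 with only the compared groups and 86 with the replicate block, and 25 to 478 when 1 library was left out. Members called were 1, and 0 with the block or without 1 of the 6 compared libraries (range 0 to 1). The serine list had 1 call, 0 without a filter or with the block (0 to 1 with a library left out). The carriers had 1, 2 with DESeq2 or the compared groups only, and 0 with the block (0 to 2). The ATF4 and collagen lists had 0, and 1 with DESeq2 or the compared groups only (collagen 0 to 1). By XYF, 2 genes were called, 210 with DESeq2, 1 with the compared groups only and 0 with the block (2212 at an unadjusted p under 0.05 by edgeR), with 0 to 4 when 1 library was left out. Members called were 0, and 1 with DESeq2. Between IMQ+XYF and VAS+H2O 270 genes were called, 712 with DESeq2, 28 with the compared groups only and 54 with the block (12 to 564). Members called were 0, 1 with DESeq2 and 0 to 1 with a library left out. The serine list had 1, 2 with DESeq2, 0 with the block or the compared groups only (0 to 3). The carriers had 1, and 0 with the block or the compared groups only (0 to 1).

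Values near 0 changed sign, as did that of Gcat against VAS+H2O. By imiquimod, Oat (−0.02) was 0.01 with DESeq2 or its size factors and 0 with the compared groups only. With 1 library left out, Oat ran from −0.06 to 0.05, Phgdh from −0.04 to 0.15 and Psat1 from −0.28 to 0.10. By XYF, Psat1 ran from −0.01 to 0.15, Pycr3 from −0.01 to 0.09 and Mthfd2 from −0.04 to 0.24. Against VAS+H2O, Prodh ran from −0.31 to 0.21 and Psat1 from −0.21 to 0.17. Gcat, at 0.31 in the main fit, ran from −0.33 to 0.64, and was −0.33 without IMQ+XYF replicate 1. No sign changed for Pycr1, Aldh18a1, Asns, Shmt2 or Psph in any alternative. The causes were not tested. Of 9 pairs of libraries with the same number, 1 had a correlation of deviations over 0.1 (−0.18 to 0.12), so the numbers were not taken as pairs. The range of Pycr1 was −2.10 to −1.68 by imiquimod and 1.25 to 1.64 by XYF. The 3 libraries per group limit small differences, and Pycr1 in IMQ+H2O rests on at most 75 counts.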
